A study of Homo sapiens with 18 samples.

Results

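The genes described here were 10 rows of a table of raw read counts with 28266 gene rows, chosen by symbol: the AP-1 genes FOS, FOSB, FOSL1, FOSL2, JUN, JUNB and JUND, and the immediate early genes EGR1, EGR3 and ARC. All 10 symbols were found once. The study asked how inhibitors of N-myristoyltransferase (NMTi), which stop the attachment of myristate to proteins, act on cells made senescent by oncogenic RAS. RNA was taken from IMR90 ER:RAS cells, a line of human lung fibroblasts. The line carries RAS fused to the hormone-binding part of the oestrogen receptor, so that 4-hydroxytamoxifen (4OHT) switches RAS on. Senescent cells had 100 nM 4OHT and control cells DMSO, and 7 days later IMP1088 (300 nM), DDD86481 (1.5 µM) or DMSO was added, with collection after 3 more days, on day 10. There were thus 6 groups of 3 libraries, called here control or senescent with DMSO, IMP1088 or DDD86481. All of them, controls included, carried the retroviral ER:RAS construct, and all came from 1 cell line. The labels did not say whether the 3 replicates of a group were separate cultures. The legend of the study's expression heatmap for these treatments counts its replicates as independent experiments. The p-values measure the spread between these libraries.

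AP-1 is a dimer of basic leucine zipper (bZIP) proteins, usually a FOS-family protein with a JUN-family protein, that binds DNA and acts on genes of growth, stress and secretion. FOS, FOSB, EGR1, EGR3 and ARC are immediate early genes, whose transcription starts within minutes of a signal without new protein synthesis and usually fades soon after, whereas FOSL1 (FRA1) and JUN often stay high in cells with lasting RAS and MAP kinase activity. In senescent fibroblasts AP-1 is known as a factor that occupies enhancers of the senescence-associated secretory genes.

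Promoter sequence is shown for the genes on which the inhibitor comparisons turn: FOS, FOSB and EGR1, which rose most in control cells treated with the inhibitors, and JUND, whose rise passed the test in senescent cells. The sequences are those of RefSeq on GRCh38.p14, the build named by the submitters' processing notes, and each is the 250 bases before the annotated start site, 5′ to 3′ on the strand of the gene. Capitals mark the letters of a CArG box (CC, 6 A or T, GG, the site bound by serum response factor), of TGACGTCA or its first 6 letters TGACGT (the cyclic AMP response element bound by CREB and ATF proteins), and of TATAAA, on either strand. FOS lay on chr14:75278828-75282230 and its sequence on chr14:75278578-75278827, plus strand. FOSB lay on chr19:45467996-45475179 and its sequence on chr19:45467746-45467995, plus strand. EGR1 lay on chr5:138465479-138469303 and its sequence on chr5:138465229-138465478, plus strand. JUND lay on chr19:18279694-18281622 and its sequence on chr19:18281623-18281872, minus strand.
FOS: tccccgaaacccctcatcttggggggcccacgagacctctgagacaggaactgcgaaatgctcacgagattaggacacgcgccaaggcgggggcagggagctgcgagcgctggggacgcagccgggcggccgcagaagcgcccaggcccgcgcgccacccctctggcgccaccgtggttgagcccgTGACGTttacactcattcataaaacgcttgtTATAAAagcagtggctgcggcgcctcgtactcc
FOSB: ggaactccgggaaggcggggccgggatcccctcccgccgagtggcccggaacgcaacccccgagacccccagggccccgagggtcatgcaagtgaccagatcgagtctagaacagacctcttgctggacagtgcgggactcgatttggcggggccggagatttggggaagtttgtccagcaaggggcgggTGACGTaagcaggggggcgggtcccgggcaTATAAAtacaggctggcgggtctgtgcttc
EGR1: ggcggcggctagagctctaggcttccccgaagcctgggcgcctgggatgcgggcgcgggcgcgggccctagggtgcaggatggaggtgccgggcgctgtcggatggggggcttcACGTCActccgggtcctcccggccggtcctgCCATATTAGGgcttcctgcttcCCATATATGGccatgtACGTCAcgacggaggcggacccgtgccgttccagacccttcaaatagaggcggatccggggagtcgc
JUND: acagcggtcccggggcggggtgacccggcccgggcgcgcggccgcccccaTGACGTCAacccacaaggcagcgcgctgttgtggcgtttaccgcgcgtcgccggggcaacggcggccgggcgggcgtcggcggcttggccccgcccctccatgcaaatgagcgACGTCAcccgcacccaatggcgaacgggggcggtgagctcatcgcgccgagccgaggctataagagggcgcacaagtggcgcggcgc

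These motifs were counted in windows of 300 bases, from 250 before to 50 after the start site. The windows searched were those of 7 of the 10 genes (FOS, FOSB, FOSL2, JUN, JUNB, JUND and EGR1). FOSL1 had no entry in the reference table, and EGR3 and ARC, both on chromosome 8, were left out of the search. EGR1 was the only one of the 7 with a CArG box in its window, and it held 2, starting 105 and 83 bases before the start site. Sequence further upstream was not searched, so a gene without a match here may still hold the site. A CArG box stood in 1.29% of all 35116 windows of the table. TGACGT stood in the windows of FOS, FOSB, FOSL2, JUND and EGR1, against 7.98% of all windows, and in FOS, FOSB and FOSL2 it began between 66 and 60 bases before the start site. The full TGACGTCA, which contains TGACGT, stood only in the JUND window of the 7, against 1.85% of all windows. TATAAA was found in FOS, FOSB and JUNB (11.5% of all windows), starting 33, 30 and 31 bases before the start. The AP-1 site TGANTCA was found in FOSL2 (7.71% of all windows), after the start site, and the EGR site GCGTGGGCG in none of the 7 windows (0.795% of all). JUN, on chr1:58780791-58784047, had no match to these letters, which says only that they are not in this window. FOSL1 lay on chr11:65892049-65900545, FOSL2 on chr2:28392858-28417317 and JUNB on chr19:12791486-12793315.

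The libraries held between 16143716 and 23189950 counts. A count of 0 allows up to 3 counts, which came to between 0.129 and 0.186 CPM (counts scaled to a common library size), and such limits cover counting error only. The 7 genes taken to check the labels moved past the threshold between senescent and control cells with DMSO, with HRAS, ESR1, CDKN1A, CDKN2A and CDKN2B higher and LMNB1 and MKI67 lower in senescent cells. Of the 11 fibroblast markers, all reached 1 CPM on average, with a summed level of 26400 to 40800 CPM in control and 13200 to 21200 CPM in senescent libraries. Between control and senescent DMSO 8 of them fell past the threshold, while VIM rose from 5035 to 11680 CPM. The 6 epithelial markers summed to 1.02 to 4.08 CPM in control and 10.2 to 15.6 CPM in senescent libraries, 1 of them averaging at least 1 CPM, with KRT5 and KRT14 at 0. CLDN4 carried most of the senescent sum, at 1.95 CPM in control DMSO and 10.1 CPM in senescent DMSO. EPCAM went the other way, from 1.00 to 0.562 CPM, as did ELF3, from 0.3 to 0.161 CPM. Endothelial markers (4 of 6 at or above 1 CPM) summed to 31.9 to 55.4 and 14.7 to 44.8 CPM. Their members went both ways between control and senescent DMSO, TEK, which carried most of the control sum, from 42.0 to 11.2 CPM, VWF from 1.12 to 5.82 CPM and PECAM1 from 0.210 to 2.77 CPM, while CLDN5 and CDH5 were under the floor in control DMSO on average and at 19.5 and 1.77 CPM in senescent DMSO. These 5 were past the threshold. Leukocyte markers (0 of 6) summed to at most 1.1 CPM, with CD3E at 0. The part of these shifts in the results was not tested, and in such bulk samples fewer cells expressing a gene and less RNA of it per cell cannot be told apart. Replicate 3 of control DMSO stood apart from the other replicates of its group.

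FOS, FOSB and JUNB rose and FOSL1 fell with both inhibitors in both cell states. EGR1 passed the threshold only in control cells, and FOSL2 and JUND only in senescent cells. The test of a difference between the cell states passed for EGR1 and JUND. For FOSL2 it did not (edgeR, adjusted p = 0.373 with IMP1088 and 0.134 with DDD86481). Calls are at an adjusted p under 0.05 from the quasi-likelihood test of edgeR across 14341 genes. With DMSO, 5 genes were higher in senescent cells (FOSB, FOSL1, JUN, JUNB and EGR3) and 2 lower (FOS and FOSL2), where the share of all genes was 32.5% higher and 36% lower. The 7 of 10 called is close to the 68.5% of all genes called in either direction, and so says little about these genes as a set. In senescent cells IMP1088 raised 6 genes (FOS, FOSB, FOSL2, JUNB, JUND and ARC) and lowered 3 (FOSL1, JUN and EGR3), against 20.6% and 23.8% of all genes. DDD86481 in senescent cells raised the same 6 and lowered 2 of those 3 (FOSL1 and EGR3), against 20% and 23.1%. ARC passed the filter on low counts only through these treated senescent groups, where it was high, so its calls follow from the filter and are given as a description. In control cells IMP1088 raised 5 (FOS, FOSB, JUNB, EGR1 and EGR3) and lowered 1 (FOSL1), against 16.2% and 17.4%. DDD86481 in control cells raised 4 of those 5 (not EGR3) and lowered FOSL1, against 17.7% and 18.7%. Across the 9 genes other than ARC, whose counts in control cells were too low for a fold change, the median log2 fold change was 0.46 between senescent and control cells, 0.54 and 0.66 for IMP1088 and DDD86481 in senescent cells, and 0.65 and 0.56 in control cells. The same medians over all genes tested lay between -0.05 and 0. The comparisons with IMP1088 and DDD86481 in 1 cell state used the same DMSO libraries, so their values are given side by side only. The doses of the inhibitors differed (300 nM against 1.5 µM), and they were not compared with each other.

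**Figure D1:**
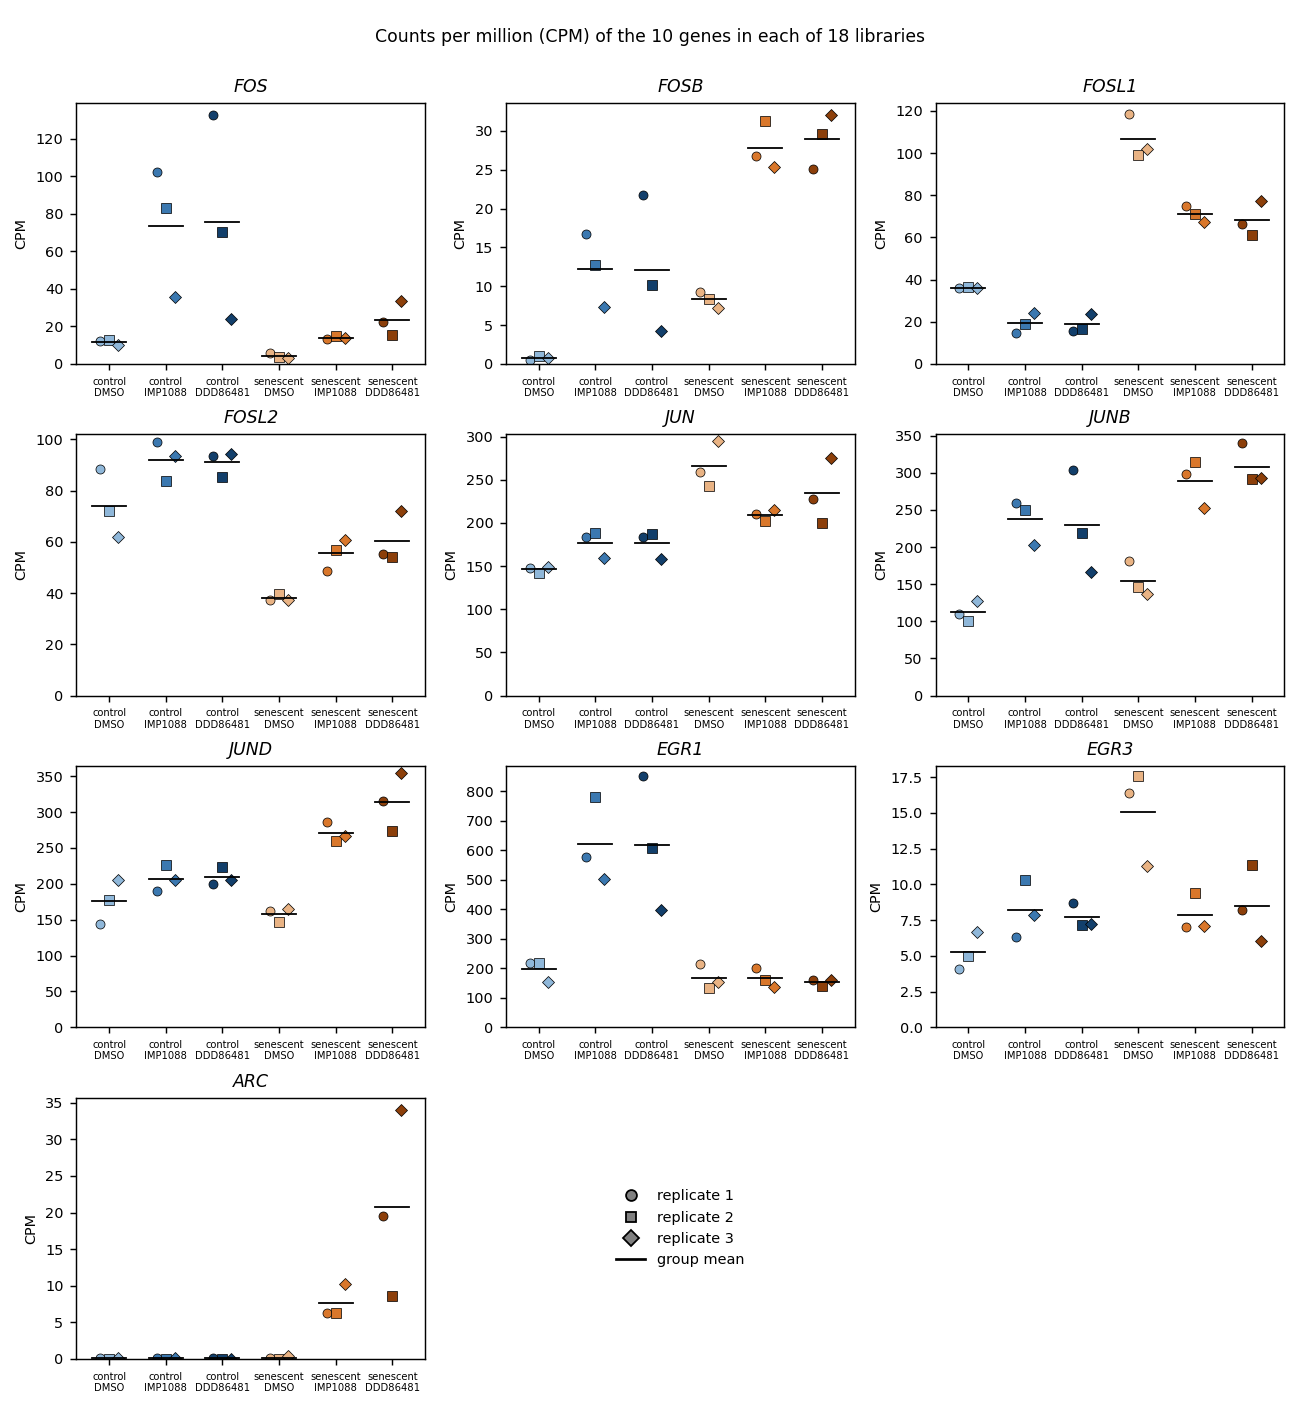
Expression of the 10 genes in each of the 18 libraries, in CPM on a linear axis from 0 (y) by group (x). Points are libraries, their shape gives the replicate, and bars are means of 3. FOS and EGR1 stand highest in control cells with an inhibitor, FOSL1 in senescent cells with DMSO, and ARC only in senescent cells with an inhibitor.

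Of the FOS family, whose proteins cannot pair with one another and so need a JUN partner, FOS itself was scarce in untreated cells and rose with both inhibitors in both states. FOS read 12.4, 12.8 and 9.85 CPM in control DMSO and 5.80, 3.80 and 3.19 CPM in senescent DMSO, so every senescent library was below every control library. The difference was a log2 fold change of -1.47 ± 0.52 (SE, n = 3 per group, adjusted p = 0.0168), and it lost the threshold without control DMSO replicate 1 (adjusted p = 0.101), control DMSO replicate 3 (0.0818) or senescent DMSO replicate 3 (0.0664). In control cells FOS read 102, 83.2 and 35.5 CPM with IMP1088 and 133, 70.5 and 23.7 CPM with DDD86481. Every treated library exceeded every DMSO library, although the treated libraries differed among themselves by up to 5.6-fold. On the log2 scale this was 2.65 ± 0.45 with IMP1088 (adjusted p = 0.000152) and 2.69 ± 0.45 with DDD86481 (adjusted p = 0.000133), the latter falling to 2.01 without control DDD86481 replicate 1. In senescent cells FOS read 13.3, 14.9 and 13.9 CPM with IMP1088 and 22.2, 15.4 and 33.3 CPM with DDD86481. These were log2 fold changes of 1.72 ± 0.52 (adjusted p = 0.0106) and 2.47 ± 0.51 (adjusted p = 0.000594). All 6 treated senescent libraries exceeded the highest library of control DMSO (12.8 CPM). The treated senescent libraries still lay below all treated control libraries with IMP1088, whereas with DDD86481 the highest senescent library (33.3 CPM) exceeded the lowest control library (23.7 CPM).

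FOSB, a relative of FOS with the same early response, was close to absent in untreated control cells, at 0.564, 0.966 and 0.796 CPM. It stood at 9.32, 8.40 and 7.20 CPM in senescent DMSO, 10.7-fold higher in the mean (log2 fold change 3.41 ± 0.50, adjusted p = 5.53e-06). FOS and FOSB thus differed in opposite directions between senescent and control cells. With an inhibitor FOSB rose in both states. Control cells read 16.7, 12.7 and 7.38 CPM with IMP1088 and 21.8, 10.1 and 4.30 CPM with DDD86481, log2 fold changes of 3.98 ± 0.48 (adjusted p = 4.43e-06) and 3.94 ± 0.48 (adjusted p = 5.25e-06). Without control DDD86481 replicate 1 the latter was 3.20. Senescent cells read 26.8, 31.3 and 25.3 CPM with IMP1088 and 25.1, 29.6 and 32.1 CPM with DDD86481, the highest levels of FOSB in the study. The log2 increments over DMSO were 1.74 ± 0.36 for IMP1088 (adjusted p = 0.000586) and 1.80 ± 0.36 for DDD86481 (adjusted p = 0.000455).

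FOSL1, which encodes FRA1, was higher in senescent cells, like FOSB, but was lowered by the inhibitors, under which FOS and FOSB rose. It was even across control DMSO at 36.1, 36.4 and 36.1 CPM and reached 119, 99.0 and 102 CPM in senescent DMSO, a 2.94-fold difference with no overlap (log2 fold change 1.56 ± 0.15, adjusted p = 1.3e-08). The inhibitors lowered it in both states. In control cells it read 14.7, 19.0 and 24.1 CPM with IMP1088 and 15.7, 16.8 and 23.7 CPM with DDD86481, log2 fold changes of -0.91 ± 0.16 (adjusted p = 0.000141) and -0.95 ± 0.16 (adjusted p = 9.48e-05). In senescent cells it read 74.9, 71.1 and 67.1 CPM and 66.6, 61.3 and 77.5 CPM, changes of -0.58 ± 0.15 (adjusted p = 0.00295) and -0.64 ± 0.15 (adjusted p = 0.00151). Every treated library lay below every DMSO library of its state, and every treated senescent library stayed above all control libraries.

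FOSL2, which encodes FRA2, was lower in senescent cells, at 37.5, 39.8 and 37.2 CPM against 88.3, 72.0 and 61.8 CPM in control DMSO (log2 fold change -0.96 ± 0.13, adjusted p = 1.56e-06). Senescent cells gained part of this back with an inhibitor, at 48.6, 56.95 and 60.9 CPM with IMP1088 (0.54 ± 0.13, adjusted p = 0.00203) and 55.1, 54.01 and 72.0 CPM with DDD86481 (0.66 ± 0.13, adjusted p = 0.000345). The threshold was missed in control cells, with 0.31 for IMP1088 (adjusted p = 0.0618) and 0.30 for DDD86481 (adjusted p = 0.0695), and treated libraries from 83.6 to 98.9 CPM overlapped the DMSO libraries. Without control DMSO replicate 1, the highest of its group, both passed (adjusted p = 0.00539 and 0.00599), and without control DMSO replicate 3 the test of a difference between the cell states passed for DDD86481 (0.0341).

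The JUN-family proteins can pair with each other as well as with FOS-family proteins, and JUNB and JUND are weaker activators than JUN at many sites. JUN was higher in senescent DMSO, at 259, 243 and 295 CPM against 148, 142 and 149 CPM in control DMSO (log2 fold change 0.86 ± 0.11, adjusted p = 5.97e-07). In senescent cells IMP1088 lowered it to 210, 202 and 215 CPM (-0.35 ± 0.11, adjusted p = 0.0132), and the call was lost without senescent DMSO replicate 3 (adjusted p = 0.0828) or senescent IMP1088 replicate 2 (0.0515). With DDD86481 it read 228, 200 and 275 CPM, which overlapped senescent DMSO (-0.18, adjusted p = 0.188, and 0.0264 without senescent DDD86481 replicate 3). In control cells JUN read 158 to 188 CPM over the 6 treated libraries, all above the DMSO libraries, with log2 fold changes of 0.28 and 0.27 that did not pass the threshold (adjusted p = 0.0546 and 0.0563). Each passed without replicate 3 of its treated group (adjusted p = 0.0275 and 0.0318).

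JUNB rose with both inhibitors in both states, by like amounts. It read 110, 100 and 128 CPM in control DMSO, 259, 250 and 203 CPM with IMP1088, and 303, 219 and 167 CPM with DDD86481. These were log2 fold changes of 1.07 ± 0.17 (adjusted p = 5.72e-05) and 1.03 ± 0.17 (adjusted p = 9.03e-05). In senescent cells it read 182, 146 and 136 CPM with DMSO, 298, 314 and 253 CPM with IMP1088, and 340, 291 and 293 CPM with DDD86481, changes of 0.90 ± 0.17 (adjusted p = 0.000186) and 0.99 ± 0.17 (adjusted p = 7e-05). No treated library overlapped the DMSO libraries of its state. Between senescent and control DMSO the difference was small, 0.46 ± 0.17 (adjusted p = 0.0201). It was not past the threshold with upper quartile scaling (adjusted p = 0.111), without senescent DMSO replicate 1 (0.122) or without control DMSO replicate 2 (0.113). Of the exonic bases of JUNB, 14.2% overlap HOOK2 on the opposite strand, and the strand setting of the counting was not given in the sources used here, so some JUNB reads may belong to HOOK2.

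JUND, the JUN-family gene that is usually expressed without a stimulus, read 144, 178 and 205 CPM in control DMSO and 162, 147 and 165 CPM in senescent DMSO, which overlapped (-0.15, adjusted p = 0.246). With upper quartile scaling that difference was -0.31 (adjusted p = 0.023), and without control DMSO replicate 1 it was -0.27 (0.0302). In senescent cells it rose to 286, 259 and 267 CPM with IMP1088 (0.78 ± 0.12, adjusted p = 1.65e-05) and 316, 274 and 354 CPM with DDD86481 (0.99 ± 0.12, adjusted p = 9.19e-07). In control cells it read 191, 226 and 205 CPM and 200, 224 and 206 CPM, and the changes of 0.24 and 0.26 did not pass (adjusted p = 0.116 and 0.0868), but did without control DMSO replicate 3 (0.0132 and 0.00983).

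EGR1, a zinc finger factor induced through serum response factor and MAP kinases, rose with the inhibitors in control cells and did not pass the test in senescent cells. In control cells it read 219, 219 and 153 CPM with DMSO, 577, 780 and 503 CPM with IMP1088, and 850, 609 and 399 CPM with DDD86481. Every treated library exceeded every DMSO library, with log2 fold changes of 1.65 ± 0.23 for both inhibitors (adjusted p = 2.27e-05 and 2.31e-05). Senescent cells read 213, 134 and 154 CPM with DMSO, 202, 159 and 138 CPM with IMP1088, and 161, 139 and 161 CPM with DDD86481. These 3 groups overlapped, with log2 fold changes of -0.01 for IMP1088 (adjusted p = 0.976) and -0.12 for DDD86481 (adjusted p = 0.696). With DMSO the senescent and control libraries also overlapped (-0.24, adjusted p = 0.369).

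EGR3 (chr8:22687659-22693480), a relative of EGR1, was a low transcript that was higher in senescent cells and lowered by the inhibitors in senescent cells. A long non-coding RNA on the opposite strand overlaps 3.26% of its exonic bases. It read 4.11, 4.99 and 6.67 CPM in control DMSO and 16.4, 17.6 and 11.3 CPM in senescent DMSO (log2 fold change 1.53 ± 0.23, adjusted p = 6.95e-06). In senescent cells it fell to 7.05, 9.39 and 7.12 CPM with IMP1088 (-0.94 ± 0.23, adjusted p = 0.00212) and 8.19, 11.3 and 6.01 CPM with DDD86481 (-0.82 ± 0.23, adjusted p = 0.00617), where 1 treated library reached the lowest DMSO library. In control cells it read 6.32, 10.3 and 7.87 CPM with IMP1088, overlapping DMSO (0.65 ± 0.24, adjusted p = 0.0389). That call was lost when any of 4 libraries was left out, control DMSO replicate 1 (adjusted p = 0.117) or 2 (0.0938) or control IMP1088 replicate 2 (0.198) or 3 (0.0605), and with upper quartile scaling (0.0634) or only the groups compared (0.0902). With DDD86481 it read 8.71, 7.17 and 7.24 CPM (0.56, adjusted p = 0.0704, and 0.0281 without control DMSO replicate 3).

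ARC (chr8:142611049-142614479), which encodes a protein best known from synapses, exceeded 7 counts only in senescent cells with an inhibitor. Its counts were 3, 1 and 1 in control DMSO, 1, 0 and 3 with IMP1088, and 3, 0 and 0 with DDD86481, all at or under the floor, so no fold change is given in control cells. Senescent DMSO held 2, 0 and 7 counts, which did not differ from control DMSO past the threshold (adjusted p = 0.463). Senescent cells held 120, 112 and 182 counts with IMP1088 and 357, 165 and 555 counts with DDD86481. Over the summed counts, senescent cells with IMP1088 stood 42.4 times above senescent DMSO (95% counting interval 22.1 to 93.4) and with DDD86481 112 times (58.9 to 246). Of the 9 counts in senescent DMSO, 7 came from replicate 3, and without it, a setting chosen after seeing the data, the ratios were 122 (33.6 to 1010) and 323 (89.2 to 2670). Against control cells with the same inhibitor the ratios were 119 (46.2 to 439) and 390 (133 to 1890). Since ARC passed the filter only through the groups where it was high, these ratios are a description, with no test.

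**Figure D2:**
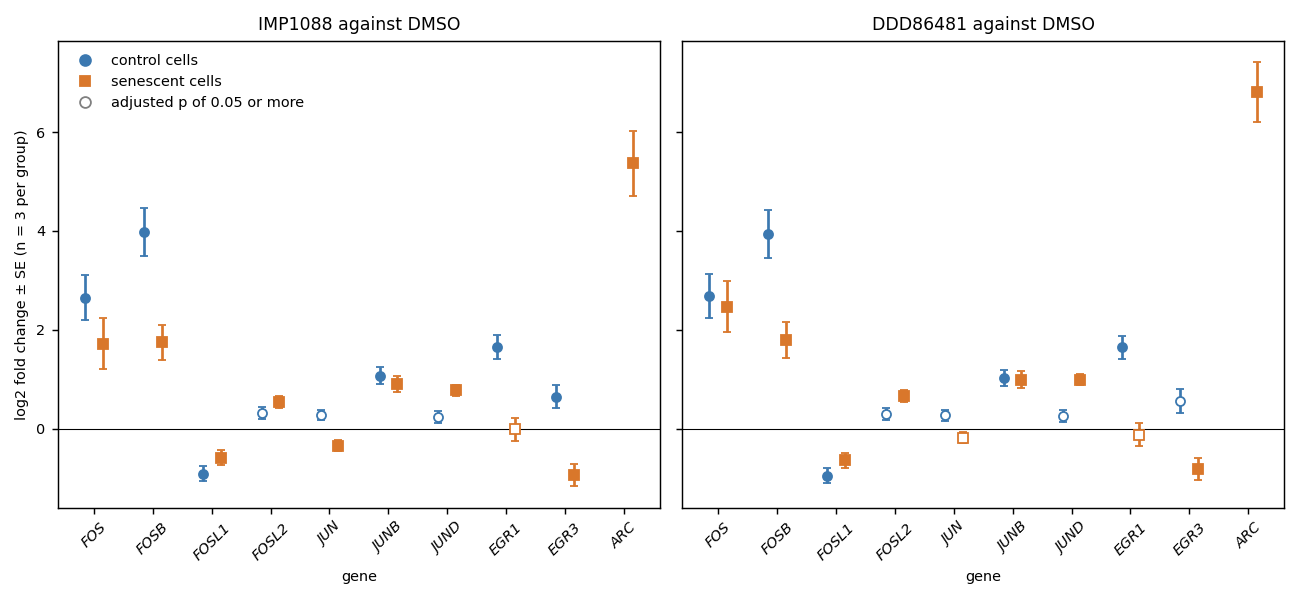
Log2 fold change ± SE against DMSO (y, 3 libraries per group) of each gene (x) for IMP1088 (left) and DDD86481 (right), in control cells (circles) and senescent cells (squares). Open symbols did not pass an adjusted p of 0.05, and ARC in control cells is left out because its counts were at the floor. The ARC values depend on the prior count and are given as a description. EGR1 rose by 1.65 in control cells and lay at -0.01 and -0.12 in senescent cells, and EGR3 lay above 0 in control and below 0 in senescent cells.

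Whether an inhibitor acted differently in the cell states was tested with an interaction term, which subtracts the log2 fold change of control cells from that of senescent cells. For IMP1088, 1 gene was higher (JUND) and 4 lower (FOSB, JUN, EGR1 and EGR3), against 12.1% and 14.1% of all genes. For DDD86481, 2 were higher (JUND and ARC) and the same 4 lower, against 14.4% and 15.9%, where the call of ARC again follows from the filter. EGR1 had differences of -1.66 ± 0.33 for IMP1088 (adjusted p = 0.00108) and -1.77 ± 0.33 for DDD86481 (adjusted p = 0.000628). For EGR3 they were -1.59 ± 0.33 (adjusted p = 0.00151) and -1.38 ± 0.33 (adjusted p = 0.00419). FOSB rose in both states but by a smaller fold in senescent cells, with differences of -2.23 ± 0.62 for IMP1088 (adjusted p = 0.0131) and -2.14 ± 0.62 for DDD86481 (adjusted p = 0.0151), from a senescent DMSO level that was already 10.7-fold higher. Mean CPM went from 8.31 to 27.8 and 28.9 in senescent cells, and from 0.775 to 12.3 and 12.1 in control cells. The smaller rise thus holds on the log2 scale only. Both FOSB interaction calls were lost without control DMSO replicate 3 (adjusted p = 0.083 and 0.0886), and the second difference was -1.36 without control DDD86481 replicate 1.

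The JUN genes split in this test. JUN had differences of -0.62 ± 0.15 (adjusted p = 0.00573) and -0.45 ± 0.15 (adjusted p = 0.0315) for IMP1088 and DDD86481. The second missed the threshold in 6 of 12 fits with 1 library removed, control DMSO replicate 2, control DDD86481 replicate 1 or 2, senescent DMSO replicate 3 or senescent DDD86481 replicate 1 or 2 (adjusted p up to 0.105), and with only the groups compared (0.0908). JUND had differences of 0.54 ± 0.16 (adjusted p = 0.0194) and 0.74 ± 0.16 (adjusted p = 0.00237), the first lost without senescent DMSO replicate 2 (adjusted p = 0.0559) or senescent IMP1088 replicate 1 (0.0522). JUNB gave -0.18 (adjusted p = 0.61) and -0.03 (0.938). FOS (adjusted p = 0.331 and 0.836), FOSL1 (0.27 and 0.285) and FOSL2 (0.373 and 0.134) also missed the threshold. For ARC the fitted difference with DDD86481 was 7.24 ± 2.46 (adjusted p = 0.0322), and with IMP1088 5.52 (adjusted p = 0.0798). Both rest on control groups at the floor and depend on the prior count, and neither is read as a result. The DDD86481 call was lost without control DMSO replicate 1 (adjusted p = 0.191), 2 (0.0518) or 3 (0.13) or control DDD86481 replicate 3 (0.0516).

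Senescent and control cells were also compared under each inhibitor. With IMP1088, 4 genes were higher in senescent cells (FOSB, FOSL1, JUND and, by the filter, ARC) and 3 lower (FOS, FOSL2 and EGR1), where 36.2% of all genes were higher and 37.8% lower. These counts lie near the shares of all genes, and so say little about the 10 genes as a set. With DDD86481, 6 were higher (those 4, JUN and JUNB) and the same 3 lower, against 36.1% and 37.9%. EGR1, which did not differ past the threshold with DMSO, was lower in senescent cells by -1.90 on the log2 scale with IMP1088 (adjusted p = 5.35e-07) and -2.01 with DDD86481 (adjusted p = 2.63e-07). FOS was at -2.40 (adjusted p = 7.97e-05) and -1.68 (adjusted p = 0.00166), the second at -0.999 without control DDD86481 replicate 1 and not past the threshold with only the groups compared in the fit (adjusted p = 0.0808). FOSL1 kept a higher level in senescent cells, at 1.88 and 1.87 (adjusted p = 9.95e-10 and 1.23e-09). FOSL2 stayed lower, at -0.73 and -0.59 (adjusted p = 3.33e-05 and 0.000303). FOSB was higher by 1.18 (adjusted p = 0.00456) and 1.27 (adjusted p = 0.00282), the second reaching 2.02 without control DDD86481 replicate 1. JUND was higher by 0.39 (adjusted p = 0.005) and 0.59 (adjusted p = 0.000122). JUN stood at 0.24 (adjusted p = 0.0516, and 0.0457 without control IMP1088 replicate 2) and 0.41 (adjusted p = 0.00199) and JUNB at 0.28 (adjusted p = 0.13) and 0.42 (adjusted p = 0.026), the last call lost without control DDD86481 replicate 2 (0.0687) or 3 (0.17) or senescent DDD86481 replicate 1 (0.0969). EGR3, higher in senescent cells with DMSO, did not differ past the threshold under either inhibitor, at -0.06 and 0.15 (adjusted p = 0.818 and 0.57).

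Levels were set against each other between genes only as reads per kilobase of exon, scaled as for CPM (RPKM), since the genes differ in length. In control DMSO the JUN genes summed to 193 ± 21.3 RPKM (mean ± SD, n = 3) and the FOS genes to 33.3 ± 2.24 RPKM, so JUN-family transcripts were in excess, as they were in every group. JUND was the highest of the 10 genes in control DMSO, at 91.1 ± 15.7 RPKM, followed by EGR1 (62.8 ± 12.2), JUNB (61.6 ± 7.60), JUN (40.3 ± 1.06), FOSL1 (19.2 ± 0.103), FOSL2 (10.3 ± 1.87), FOS (3.67 ± 0.502), EGR3 (1.04 ± 0.258), FOSB (0.140 ± 0.0363) and ARC at the floor. EGR1 and JUNB did not differ beyond their spread. In senescent DMSO the order was JUNB (84.5 ± 13.1), JUND (81.9 ± 5.25), JUN (73.3 ± 7.36), FOSL1 (56.4 ± 5.62) and EGR1 (53.3 ± 13.1), with FOSL2 (5.33 ± 0.203), EGR3 (3.00 ± 0.671), FOSB (1.50 ± 0.192) and FOS (1.34 ± 0.430) far below. Here JUNB, JUND and JUN lay within their spread of one another, as did FOSL1 and EGR1, and FOSB and FOS.

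Within the FOS family FOSL1 held most of the RPKM in untreated cells, 57.7% in control and 87.3% in senescent DMSO. With an inhibitor FOS had the highest mean share in control cells, at 45.9% with IMP1088 and 44.5% with DDD86481 against 9.98% to 12.0% over the DMSO libraries, while FOSL1 held 22.4% and 23.1%. By library the FOS share was 56.7%, 52.1% and 29.1% with IMP1088 and 62.3%, 49.4% and 21.9% with DDD86481. In replicate 3 of both groups FOS was below FOSL1 (33.4% and 37.0%) and FOSL2 (34.1% and 38.8%). In senescent cells FOSL1 kept the lead, at 68.7% with IMP1088 and 63.5% with DDD86481, with FOS at 8.03% and 12.6% against 2.04% with DMSO, FOSB at 9.13% and 9.17% against 2.31%, and FOSL2 at 14.2% and 14.7% against 8.31%. In the JUN family the share of JUN was 30.6% in senescent DMSO and 21.0% in control DMSO, and between 16.3% and 17.3% in all 4 inhibitor groups. JUNB held 45.3% and 43.7% in treated control cells against 32.0%, and 44.2% and 42.6% in treated senescent cells against 35.2%. Of the 35 differences in share tested (7 genes in 5 comparisons), 30 had groups that did not overlap. With 3 libraries against 3 the smallest two-sided exact permutation p is 0.1, so none could pass (adjusted p = 0.117 at the least). The 30 are not separate results, since shares within a family depend on one another and the comparisons reuse the DMSO libraries. The FOS-family total was 64.6 ± 6.08 RPKM in senescent DMSO and 54.8 ± 1.6 and 57.3 ± 8.93 with the inhibitors (the totals were not tested). The JUN-family total was 240 ± 16.1 RPKM with DMSO and 356 ± 17.2 and 396 ± 34.4 RPKM with the inhibitors.

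**Figure D3:**
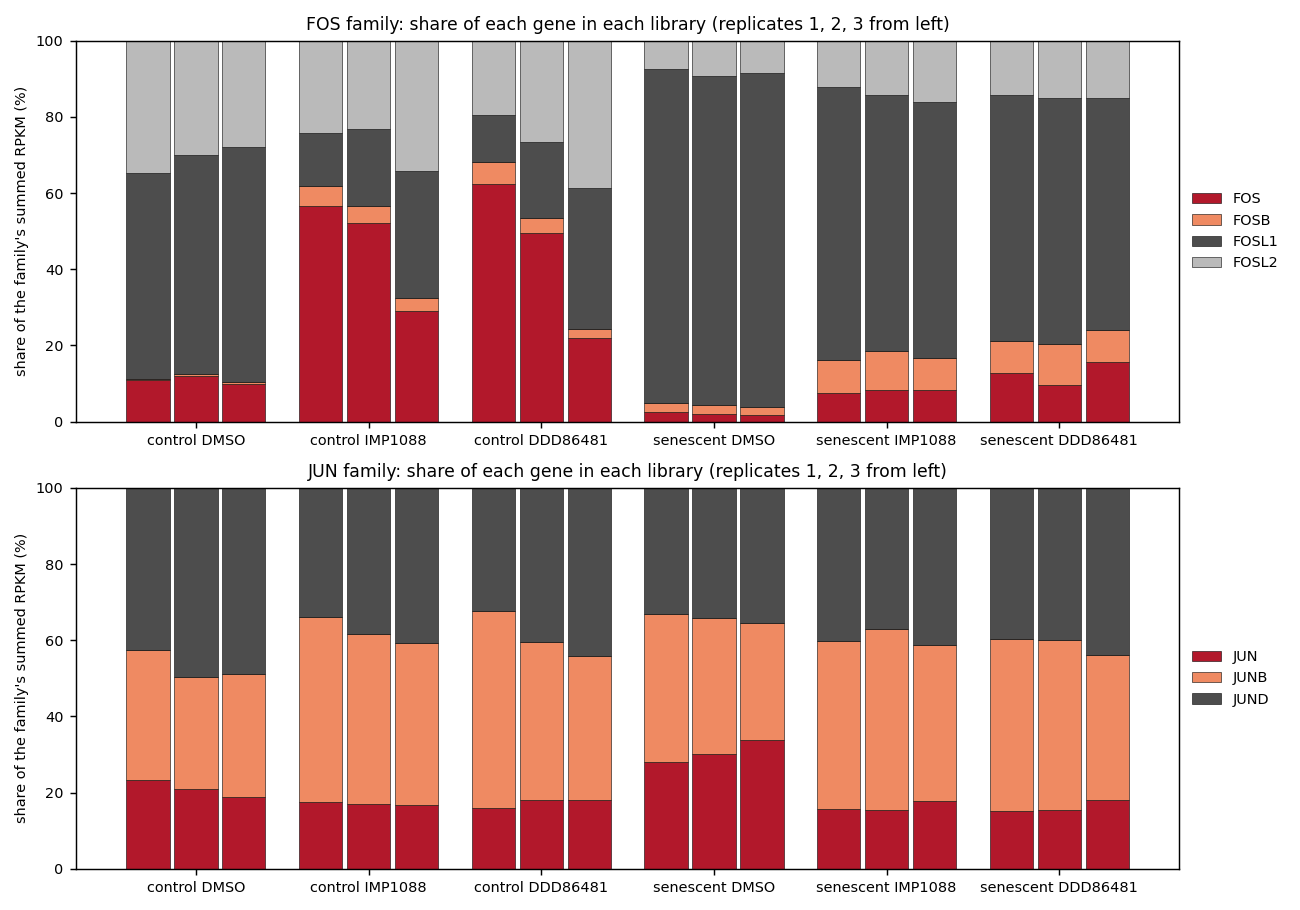
Share of each gene in its family's summed RPKM (y, %) in each library (x, 3 bars per group). FOS holds 45.9% on average in control cells with IMP1088 but a smaller share than FOSL1 and FOSL2 in replicate 3 of both treated control groups, and FOSL1 holds 87.3% in senescent cells with DMSO. JUN is smallest in the 4 groups with an inhibitor.

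The replicates of the treated control groups spread widely and together. In both inhibitor groups of control cells, replicate 3 was the lowest for FOS, FOSB, JUN, JUNB and EGR1, and the highest for FOSL1. The highest FOS library was 2.89 times the lowest with IMP1088 and 5.6 times with DDD86481, and for FOSB the ratios were 2.26 and 5.06. In senescent cells with IMP1088 the same ratios were 1.13 and 1.24. In senescent cells with DDD86481, replicate 3 was the highest for FOS, FOSB, FOSL1, FOSL2, JUN, JUND and ARC. The reason was not tested.

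The remaining genes of the response were followed in 4 lists, which were chosen with earlier results of these data known. Their shares against all genes are thus a description. Of 40 other immediate early genes 37 passed the filter, and in senescent DMSO 17 were higher and 12 lower than in control DMSO (median log2 fold change 0.27, all genes -0.05). These were 45.9% and 32.4% of the list, against 32.5% and 36% of all genes. PTGS2 (cyclooxygenase 2) was at 398 against 3.32 CPM, NR4A3 (an orphan nuclear receptor) at 15.1 against 0.952 CPM and IER3 at 1550 against 132 CPM, while KLF4 was at 1.24 against 26.7 CPM, ZFP36L2 (an RNA-decay factor) at 25.4 against 253 CPM and NR4A2 at 3.18 against 21.0 CPM. In control cells IMP1088 raised 12 and lowered 8 (32.4% and 21.6% of the list, median 0.24) and DDD86481 raised 11 and lowered 8 (29.7% and 21.6%, median 0.20). Of all genes 16.2% rose and 17.4% fell with IMP1088, and 17.7% and 18.7% with DDD86481. Those raised included PTGS2, at 12.9 and 15.5 CPM, and NR4A3, at 4.04 and 4.30 CPM, and those lowered F3 (tissue factor), at 86.6 and 100 CPM against 194 CPM. In senescent cells IMP1088 raised 8 and lowered 13 (median -0.12) and DDD86481 raised 10 and lowered 10 (median 0.08). With IMP1088 these were 21.6% and 35.1%, against 20.6% and 23.8% of all genes. With DDD86481 they were 27% each, against 20% and 23.1%. The 21.6% raised by IMP1088 lies near the share of all genes, and so says little about these genes. NR4A2 rose to 10.4 and 10.7 CPM and NR4A1 to 16.2 and 21.3 CPM from 7.47 CPM, while F3 fell to 80.2 and 92.1 CPM from 235 CPM and NR4A3 to 6.55 and 7.76 CPM. The interaction was lower for 15 and 12 of the 37 genes (40.5% and 32.4%, against 14.1% and 15.9% of all genes) and higher for 3 and 5 (8.11% and 13.5%, against 12.1% and 14.4%). NR4A3, which rose in control and fell in senescent cells, had interactions of -3.28 ± 0.32 (adjusted p = 4.45e-07) and -3.14 ± 0.32 (adjusted p = 8.03e-07), the direction seen for EGR3.

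Of 16 other bZIP genes, whose proteins can pair with FOS or JUN proteins or bind like sites, 14 were tested. In senescent DMSO 4 were higher and 5 lower (median log2 fold change -0.18), MAFF at 394 against 49.5 CPM and MAFK at 99.3 against 35.8 CPM among the former, and JDP2, a repressor of AP-1 sites, at 27.7 against 53.1 CPM among the latter. The 4 and 5 are 28.6% and 35.7%, near the 32.5% and 36% of all genes, and so say little about the list. With IMP1088 in senescent cells 3 rose and 5 fell (median -0.12), and with DDD86481 3 rose and 2 fell (median -0.04). The 21.4% that rose in each case lie near the 20.6% and 20% of all genes, and so say little about these genes. Those that fell made up 35.7% and 14.3%, against 23.8% and 23.1% of all genes. ATF3, a stress factor that pairs with JUN proteins, rose to 28.4 and 30.1 CPM from 15.5 CPM, and JDP2 fell to 18.8 and 20.7 CPM. In control cells 3 rose and 4 fell with IMP1088 (median 0.25) and 3 rose and 2 fell with DDD86481 (median 0.17), MAFG among those raised by both. With IMP1088 this was 21.4% and 28.6% (all genes 16.2% and 17.4%), and with DDD86481 21.4% and 14.3% (all genes 17.7% and 18.7%). The interaction was higher for 1 and lower for 2 with IMP1088 (7.14% and 14.3%, against 12.1% and 14.1% of all genes), and higher for 1 and lower for 1 with DDD86481 (7.14% each, against 14.4% and 15.9%).

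Of the 22 kinases and factors that act on the promoters of these genes, such as MAP kinases, the ribosomal S6 kinases and serum response factor with its partners, 11 were higher and 7 lower in senescent DMSO (median 0.20), with RPS6KA1 at 27.3 against 3.54 CPM. The 11 and 7 are 50% and 31.8%, against 32.5% and 36% of all genes. In senescent cells 10 fell and 0 rose with IMP1088 (45.5% lower, against 23.8% of all genes, median -0.22) and 11 fell and 1 rose with DDD86481 (50% lower, against 23.1%, median -0.24), MRTFB, a partner of serum response factor, to 5.78 and 5.92 CPM from 12.1 CPM. Of all genes 20.6% and 20% rose there. In control cells 4 rose and 4 fell with IMP1088 (median 0.06) and 5 rose and 3 fell with DDD86481 (median 0.07). With DDD86481 these were 22.7% and 13.6%, against 17.7% and 18.7% of all genes. With IMP1088 they were 18.2% each, near the 16.2% and 17.4% of all genes, and so say little about these genes. The interaction was lower for 5 of these 22 genes with IMP1088 and 8 with DDD86481 (22.7% and 36.4%, against 14.1% and 15.9% of all genes), and higher for 0 in both (against 12.1% and 14.4%).

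Of 29 genes known as targets of AP-1, 28 were tested, and 21 were higher and 5 lower in senescent DMSO (median log2 fold change 1.80). This is 75% and 17.9%, against 32.5% and 36% of all genes. As the list was chosen with earlier results of these data known, these shares are a description. Among them MMP3 (stromelysin) stood at 2088 against 1.36 CPM, CXCL8 (interleukin 8) at 6991 against 23.8 CPM and the matrix gene DCN at 7.73 against 3042 CPM. With IMP1088 12 fell and 3 rose in senescent cells (median -0.36) and 14 fell and 5 rose in control cells (median -0.53), and with DDD86481 13 fell and 5 rose (median -0.34) and 14 fell and 5 rose (median -0.49). In senescent cells 42.9% fell and 10.7% rose with IMP1088 (all genes 23.8% and 20.6%), and 46.4% and 17.9% with DDD86481 (23.1% and 20%). In control cells 50% fell with each, against 17.4% and 18.7% of all genes. The 17.9% that rose with each in control cells lie near the 16.2% and 17.7% of all genes, and so say little. In senescent cells CCND1 (cyclin D1) fell to 1707 and 1923 CPM from 4820 CPM and CCL2 to 8.47 and 12.1 CPM from 41.9 CPM, while HMOX1 (heme oxygenase) rose to 105 and 151 CPM from 18.7 CPM. In control cells HBEGF fell to 3.05 and 2.83 CPM from 12.2 CPM. The interaction was higher for 9 and lower for 3 with IMP1088 (32.1% and 10.7%, against 12.1% and 14.1% of all genes), and higher for 11 and lower for 4 with DDD86481 (39.3% and 14.3%, against 14.4% and 15.9%).

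**Figure D4:**
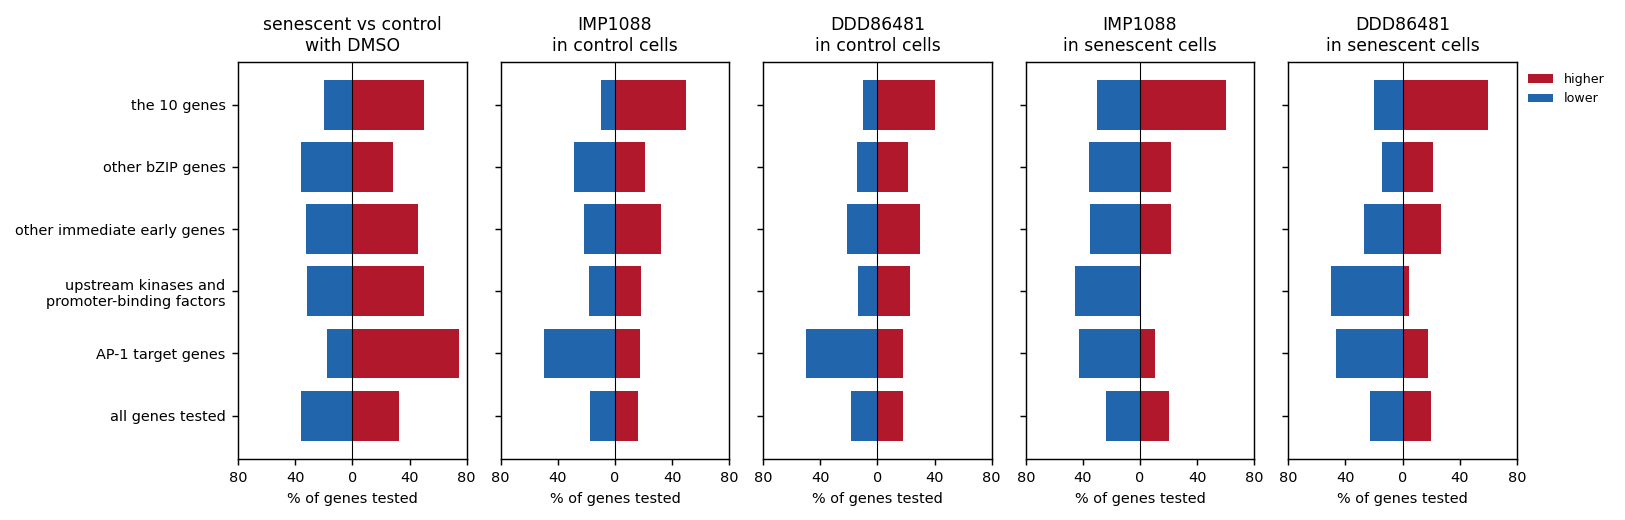
Percent of the genes tested in each list (y) that were higher (right) or lower (left) past an adjusted p of 0.05 (x, %) in 5 comparisons, with all 14341 genes in the lowest bar. AP-1 target genes were higher for 75% in senescent DMSO, and lower for 50% in control cells with each inhibitor, where 50% and 40% of the 10 genes were higher. The lists were chosen with earlier results of these data known, so the bars are a description.

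The genes most like each of the 10 over the 18 libraries were taken by the root mean square difference of centred log2 CPM, a description with no test, in which the points share groups and libraries. EGR1 lay closest to INSYN2A (0.31), FOXRED2 (0.35) and its relative EGR2 (0.35), where EGR1 itself varied by 0.91. EGR2 read 7.17, 9.17 and 7.61 CPM in control DMSO, 14.8, 22.1 and 14.5 CPM with IMP1088 and 21.1, 21.2 and 13.9 CPM with DDD86481, and 3.47 to 8.52 CPM over the senescent libraries. FOSL1 lay closest to PFKP (0.20), ORAI1 (0.21) and MGLL (0.21), FOSB to EML6 (0.52) and JUNB to ESCO1 and SRPRB (both 0.23). FOS had no close neighbour, PTGDS being nearest at 0.69 of its own 1.49. ARC lay nearest to APOA4 (0.82), IL23A (0.95) and NPTX2 (1.00), of its own 2.97. Among the 10 genes JUNB and JUND were the closest pair (0.35), where JUNB itself varied by 0.55 and JUND by only 0.36. The measure is not scaled by this variation, so genes that vary little lie close by it.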

How the data were processed

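Poly(A) RNA of 18 bulk libraries, 3 in each of 6 groups, was sequenced. The values deposited by the authors were raw, unnormalized counts of reads for each gene symbol, in 1 column per library. The submitters' processing notes name hg38, DRAGEN, STAR 2.7.8a and DESeq2 1.32.0, whereas the study's methods name TopHat and hg19 with directional libraries. The table holds no coordinates, so the build was not settled, and the strand setting of the counting was not given in the sources used here. Reads carried no molecular identifiers, so intervals cover counting error only.

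Of 28266 rows 6836 held no count. filterByExpr in edgeR 4.0.16 (R 4.3.3) kept 14341 genes with 99.962% of counts. Counts were scaled by TMM and fitted by the robust quasi-likelihood test over all groups, with p-values adjusted by Benjamini-Hochberg over all genes tested (threshold 0.05). SEs were taken from the F statistic. CPM used TMM-scaled library sizes, and RPKM the union of GENCODE exons on GRCh37. All 10 genes were named in every comparison. For each other list, up to 3 genes with the greatest rise and fall among those called, not overlapping and averaging at least 1 CPM in 1 group could be named, of which a few are given. EGR2 was given as a near neighbour of EGR1. The genes and lists were chosen with earlier results of these data known.

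Replicates differed by more than sampling noise (chi-square per gene 5.26 or more), so no library was counted as a duplicate. Replicate numbers paired control DMSO with control IMP1088, by correlations of their deviations alone (r = 0.394, 0.123 and 0.231). Alternatives were upper quartile scaling, DESeq2 1.42.0, no filter, at least 1 CPM in 3 libraries, only the groups compared, a replicate block, each library left out, a 1.5-fold threshold (glmTreat) and other gene lengths for shares.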

Additional observations from a re-analysis of the deposited data

Results flagged for a closer look

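For 11 results the effect of an inhibitor in senescent cells differed from that in control cells, by the interaction test of edgeR. Of all genes tested, 26.2% were called in this test with IMP1088 and 30.3% with DDD86481. With IMP1088 the differences in log2 fold change (senescent minus control) were -2.23 for FOSB, -0.62 for JUN, 0.54 for JUND, -1.66 for EGR1 and -1.59 for EGR3. With DDD86481 they were -2.14 for FOSB, -0.45 for JUN, 0.74 for JUND, -1.77 for EGR1, -1.38 for EGR3 and 7.24 for ARC. ARC passed the filter only through the groups where it was high and had 0 to 3 counts in control libraries, so its value is a fitted number that is not read as a result. Both sets share the DMSO libraries. Some calls were lost in fits with a single library left out, those of FOSB with both inhibitors, JUND with IMP1088, and JUN and ARC with DDD86481. The groups of 3 libraries were too small for a test of single outlying libraries.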

How the results depend on the processing

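The number of the 10 genes called stayed within 1.5 times under every alternative except the 1.5-fold threshold, where it fell to 2 and 5 for IMP1088 and DDD86481 in senescent cells, 2 and 1 for their interactions with senescence, and 5 for senescent against control cells with DDD86481. At that threshold, of all 14341 genes, 774 were higher and 834 lower with IMP1088 in senescent cells, and 731 and 817 with DDD86481. The interactions were higher for 358 and lower for 419 with IMP1088, and for 345 and 456 with DDD86481. Senescent against control cells with DDD86481 gave 2870 and 3394, near the share of the 10 genes, so that count says little. All but the interaction counts include ARC, whose calls follow from the filter. Upper quartile scaling moved the median of all genes between senescent and control DMSO to -0.21. Values near 0 changed sign. EGR1 with IMP1088 in senescent cells was 0.032 at 1 CPM in 3 libraries and 0.023 with only the groups compared. The DDD86481 interaction of JUNB was 0.02, 0.014 and 0.011 with upper quartile scaling, 1 CPM in 3 libraries and the replicate block, and 0.007 with only the groups compared, and that of FOS was 0.017 with the replicate block. With 1 library left out, log2 fold changes ran from -0.17 to 0.20 and -0.26 to 0.091 (EGR1 with IMP1088 and DDD86481 in senescent cells), -0.18 to 0.25 and -0.61 to 0.50 (DDD86481 interaction of JUNB and FOS), and -0.22 to 0.15 and -0.11 to 0.34 (EGR3 in senescent against control cells with IMP1088 and DDD86481). The FOSL2 share with DDD86481 in control cells differed by -7.81 to 1.83 percentage points. None of these passed the threshold in the main test. The causes were not tested.

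Without the filter 6 calls were lost and 2 gained, those lost being FOS between senescent and control DMSO (adjusted p = 0.0851), FOS with IMP1088 in senescent cells (0.0649), the FOSB interactions (0.0665 and 0.071), the ARC interaction with DDD86481 (0.122) and JUNB in senescent against control cells with DDD86481 (0.0535). With only the groups compared 3 calls were lost and 3 gained, and with upper quartile scaling 3 were lost, JUNB in senescent against control cells with DDD86481 (adjusted p = 0.0832) and those given in the report. DESeq2 lost 0 calls and gained 2, the ARC interaction with IMP1088 (adjusted p = 0.00185) and JUN in senescent against control cells with IMP1088 (0.0374). The replicate block gained EGR3 with DDD86481 in control cells (adjusted p = 0.049) and the ARC interaction with IMP1088 (0.0144) and changed no other call. Leaving out 1 library lost 28 calls and gained 11 over the 10 genes and all comparisons. Depth limits ARC in control cells, where no library exceeded 3 counts.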
